A study of Homo sapiens with 2 samples.

Results

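Aminoacyl-tRNA synthetases are the enzymes that join each amino acid to its tRNA, and the 37 genes described here are those of 36601 in the deposited tables whose symbols follow the naming pattern of this family. They were taken by symbol alone, with no measured value in the rule. They comprise 20 genes of the cytosolic enzymes, among them both subunits of the phenylalanine enzyme (FARSA and FARSB) and the joint glutamate and proline enzyme EPRS, and 17 genes of mitochondrial enzymes, whose symbols end in 2. The tables use older symbols, such as AARS for the gene now named AARS1. Levels were measured in MDA-MB-231, an established human breast cancer line of triple-negative type, as D21 revertant cells and D0 parental cells. D21 cells had been grown for 21 days in medium that lacked methionine and held 100 µM L-homocysteine and 1.5 µM vitamin B12 (met-hcys+). D0 cells were kept in medium with 100 µM methionine (met+), and the vitamin B12 of that medium was not stated for this library. By the labels, both groups were grown in custom RPMI-1640 with dialyzed serum. Each group is 1 single-cell library of 1 cell line. There is therefore no test between D21 and D0 cells, and all intervals below are 95% intervals for counting error, which do not cover the variation between cultures.

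A charged tRNA is the only form in which an amino acid enters the ribosome, and each cell keeps separate sets of synthetases for the cytosol and for mitochondria, both made from nuclear genes. When an amino acid runs short, its tRNA stays uncharged, the kinase GCN2 binds uncharged tRNA and phosphorylates the initiation factor eIF2, and the transcription factor ATF4 is then translated. ATF4 is known to induce genes of amino acid uptake and synthesis together with many of the cytosolic synthetases. Methionine has a further role, since the methionine-charged initiator tRNA starts nearly every protein. The comparison of D21 with D0 cells asks how these enzymes are expressed in cells that grow on methionine made from homocysteine.

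The 12487 D21 cells and 7492 D0 cells held 182839048 and 183098116 UMIs. A UMI (unique molecular identifier) marks 1 captured transcript. The median cell had 12022 UMIs in the D21 library and 18908 UMIs in the D0 library, of which 30 and 43 came from synthetase genes, and 21 cell barcodes occurred in both libraries. Levels are UMIs summed over all cells of a library, per 1000000 UMIs of those cells (CPM). Because the kit captures the 3' end of each transcript, levels are compared between libraries and not between genes. The mesenchymal genes VIM, S100A4 and CD44, which mark this line, were at 312 to 4157 CPM in both libraries, and the receptor genes ESR1 and PGR were at 0.38 CPM or less. The 7 markers of other cell types summed to 17.7 CPM in D21 cells and 20.4 CPM in D0 cells, nearly all of it from EPCAM and PECAM1, and CD3E, a marker of T cells, had 0 UMIs and 1 UMI.

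All 37 synthetase genes were detected in both libraries. They summed to 463059 UMIs (2533 CPM) in D21 cells and 426147 UMIs (2327 CPM) in D0 cells, a ratio of 1.09 (interval 1.08 to 1.09). Of the 37 genes, 34 had a mean of at least 5 CPM, and the exceptions were the mitochondrial MARS2, PARS2 and VARS2. In what follows a ratio of at most 0.8 is called lower, and a ratio of at least the inverse of 0.8 is called higher. Gene positions are on GRCh38 from GENCODE v29. Among these 34 genes, 4 were higher in D21 cells and 2 were lower, against 7.08% higher and 14.6% lower of the 10771 genes of any kind that passed the same level. The median log2 ratio was 0.07 over the 34 synthetase genes and -0.01 over all 10771 genes.

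**Figure D1:**
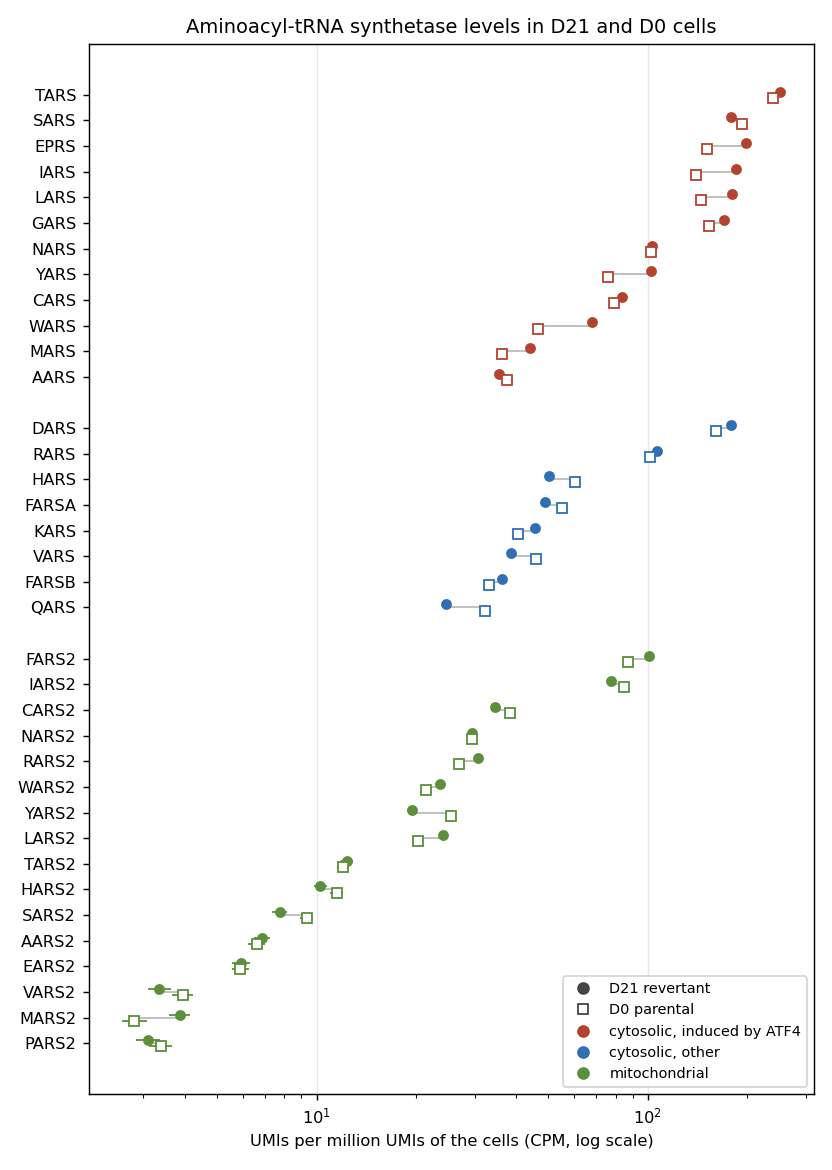
Level of each synthetase gene named in the text in CPM (log axis) in D21 revertant cells (filled circles) and D0 parental cells (open squares), 1 library each, with exact Poisson intervals that are mostly narrower than the symbols. The library pairs lie close together for most genes, and WARS, MARS2, YARS, IARS and EPRS show the widest steps to the right in D21 cells.

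Of the cytosolic enzymes, 12 are known to be induced by ATF4 (AARS, CARS, EPRS, GARS, IARS, LARS, MARS, NARS, SARS, TARS, WARS and YARS) and are kept apart here from the remaining 8. ATF4 binds, with partners of the C/EBP family, to an element of the form TGATGNAA (TTNCATCA on the reverse strand). The element was looked for on both strands of RefSeq promoter windows on GRCh38.p14, which run from 250 bases before to 50 bases after an annotated start of transcription. Windows were matched for 30 of the 37 genes. The element was present in 7 of 10 genes of the group induced by ATF4, in 0 of 6 other cytosolic genes and in 1 of 14 mitochondrial genes (YARS2). Over all genes with a window in the table, 4.46% had a match in at least 1 window. The stretches of the 4 matching genes of the group whose D21 over D0 ratio lay furthest from 1 are shown to let their elements be compared, with the match in capitals, each read on the strand of its gene.
IARS (chr9:92293677-92293736, minus strand): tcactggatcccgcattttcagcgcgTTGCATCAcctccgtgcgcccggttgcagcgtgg
MARS (chr12:57488038-57488097, plus strand): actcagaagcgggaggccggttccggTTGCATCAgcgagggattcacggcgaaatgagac
GARS (chr7:30594819-30594878, plus strand): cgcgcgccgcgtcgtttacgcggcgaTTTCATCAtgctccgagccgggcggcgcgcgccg
CARS (chr11:3057392-3057451, minus strand): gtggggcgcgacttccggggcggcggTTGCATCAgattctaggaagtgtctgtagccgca
The same 8 letters, TTGCATCA, stood in IARS, MARS and CARS, and GARS had TTTCATCA. The first base of the match lay at position -13 from the start in IARS, -4 in MARS, -33 in GARS and -2 in CARS. AARS, NARS and TARS also held a match, and EPRS, SARS and WARS held none in these windows. For LARS and YARS no window was matched.

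Within the group induced by ATF4, 4 of 12 genes were higher in D21 cells and 0 were lower, against 7.08% and 14.6% of all genes tested. The median log2 ratio of the group was 0.21. WARS (chr14:100333788-100376805, minus strand), the tryptophan enzyme, which interferon is also known to induce, was at 67.7 CPM in D21 cells, against 46.5 CPM in D0 cells, and its ratio of 1.45 (1.41 to 1.49) was the highest of the 34 genes. Without cells of at least 5 UMIs of IFIT1, IFIT2, IFIT3 and OASL, an alternative added after seeing the data, the ratio of WARS was 1.50. Cells with fewer such UMIs remained, and the part of interferon in the ratio of WARS was not tested. YARS (chr1:32775237-32818153, minus strand), the tyrosine enzyme, was at 102.0 CPM in D21 cells, against 75.7 CPM in D0 cells (ratio 1.35, 1.32 to 1.38). IARS (chr9:92210207-92293756, minus strand), the isoleucine enzyme, had 184 CPM in D21 cells, against 140 CPM in D0 cells (1.32, 1.30 to 1.34). EPRS (chr1:219968601-220046658, minus strand) was at 198 CPM in D21 cells, against 151 CPM in D0 cells (1.31, 1.29 to 1.33). LARS, the leucine enzyme, which also senses leucine for the mTORC1 pathway, came just short of the fold, with 179 CPM in D21 cells and 145 CPM in D0 cells (1.24, 1.22 to 1.26). The amino acids of these 5 genes do not include methionine. Of the 7 genes with an element in the promoter window, IARS was called higher and the others were not, against 7.08% of all genes tested. YARS, also called higher, had no matched window.

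MARS (chr12:57475445-57517569, plus strand) charges tRNA in the cytosol with methionine, the amino acid that the D21 medium lacked. It had 8044 UMIs (44.0 CPM) in D21 cells, against 6668 UMIs (36.4 CPM) in D0 cells. The ratio of 1.21 (1.17 to 1.248) lay below the fold, over all cells, and at percentile 89.8 of all genes tested. MARS shares 982 bases with DDIT3 and 13370 bases with ARHGAP9 on the opposite strand in the annotation, and the sources do not state whether the counting used strand. DDIT3, which encodes the stress factor CHOP, was at 42.9 CPM in D21 cells and 44.3 CPM in D0 cells (0.97, 0.94 to 1.00).

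The other 6 genes of the group lay nearer to 1. GARS, the glycine enzyme of both the cytosol and mitochondria, was at 170 CPM in D21 cells and 154 CPM in D0 cells (1.11). CARS (cysteine) was at 83.9 and TARS (threonine) at 251 CPM in D21 cells, against 79.2 and 239 CPM in D0 cells, with ratios of 1.06 and 1.05. NARS, the asparagine enzyme, had 103 CPM in D21 cells and 102.0 CPM in D0 cells, and its interval of 0.99 to 1.03 included 1. AARS (alanine) and SARS (serine) lay on the lower side, at 35.6 and 179 CPM in D21 cells, against 37.7 and 193 CPM in D0 cells, with ratios of 0.95 (0.91 to 0.98) and 0.93 (0.91 to 0.94).

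Of the 8 other cytosolic genes, 0 were higher and 1 was lower, against 7.08% and 14.6% of all genes tested. Their median log2 ratio was -0.05. The lower gene was QARS (chr3:49095932-49105135, minus strand), the glutamine enzyme, with 4500 UMIs (24.6 CPM) in D21 cells and 5890 UMIs (32.2 CPM) in D0 cells (0.77, 0.74 to 0.80). VARS, the valine enzyme, was at 38.6 CPM in D21 cells, against 46.1 CPM in D0 cells (0.84, 0.81 to 0.86). HARS, the histidine enzyme, was at 50.4 CPM in D21 cells, against 60.3 CPM in D0 cells (0.84, 0.81 to 0.86), and it overlaps HARS2 by 437 bases on the opposite strand. The subunits of the phenylalanine enzyme lay on opposite sides of 1. FARSA, the alpha subunit, was at 49.0 CPM in D21 cells and 55.2 CPM in D0 cells (0.89, 0.86 to 0.91). FARSB, the beta subunit, was at 36.4 CPM in D21 cells and 33.1 CPM in D0 cells (1.10, 1.06 to 1.14). KARS, the lysine enzyme of both compartments, had a ratio of 1.13, DARS (aspartate) of 1.11 and RARS (arginine) of 1.05, at 45.6, 178 and 107 CPM in D21 cells and 40.5, 161 and 101 CPM in D0 cells.

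Of the cytosolic enzymes, 8 are known to sit together in the multi-synthetase complex (EPRS, IARS, LARS, MARS, KARS, DARS, RARS and QARS), which holds them beside the ribosome. Of these, IARS and EPRS were called higher and QARS lower, against 7.08% higher and 14.6% lower of all genes tested. The interval lay above 1 for 7 of the 8, against 37.9% of all genes tested. Such intervals narrow with count, and that share includes scarcer genes than these, which had at least 4500 UMIs per library. On the SAA and AGR2 sides described below, RARS was at 0.99 and 0.97 and DARS at 0.99 and 1.06. EPRS, IARS, LARS, MARS and KARS stayed above 1 on both. Their transcripts summed to 961 CPM in D21 cells and 807 CPM in D0 cells. The transcripts of the 3 scaffold proteins of the complex also had ratios above 1, against 5111 of the 10771 genes tested. EEF1E1 was at 1.18 (219 CPM in D21 cells and 185 CPM in D0 cells). AIMP2 was at 1.13 (66.2 CPM in D21 cells and 58.6 CPM in D0 cells) and AIMP1 at 1.07 (136 CPM in D21 cells and 126 CPM in D0 cells). None of these 3 scaffold genes passed the fold.

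The mitochondrial enzymes charge the tRNAs with which the proteins of the mitochondrial genome are made, all of them subunits of the oxidative phosphorylation system. Of the 14 that passed the level filter, 0 were higher and 1 was lower, against 7.08% and 14.6% of all genes tested. Their median log2 ratio was 0.02. The lower gene was YARS2 (chr12:32727490-32755902, minus strand), the tyrosine enzyme, with 3547 UMIs (19.4 CPM) in D21 cells and 4663 UMIs (25.5 CPM) in D0 cells (0.76, 0.73 to 0.80), the opposite side of 1 from its cytosolic counterpart YARS. On the opposite strand YARS2 shares 18161 bases with DNM1L and YARS shares 1387 bases with S100PBP, and use of strand in the counting was not stated. SARS2 (serine) was next, at 7.73 CPM in D21 cells and 9.33 CPM in D0 cells (0.83, 0.77 to 0.89), and it shares 15493 bases with another annotated gene on its own strand. HARS2, CARS2 and IARS2 had ratios of 0.89, 0.91 and 0.91. On the other side, LARS2 was at 24.1 CPM in D21 cells and 20.2 CPM in D0 cells (1.19, 1.14 to 1.24), and FARS2 at 101 CPM in D21 cells and 86.9 CPM in D0 cells (1.16, 1.14 to 1.19). RARS2 had a ratio of 1.14 and WARS2 of 1.10. The interval of counting error included 1 for AARS2 (1.04), TARS2 (1.03), EARS2 and NARS2 (1.00 each), and together these intervals ran from 0.92 to 1.13.

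MARS2 (chr2:197705369-197708387, plus strand), the mitochondrial methionine enzyme, was scarce, with 707 UMIs (3.87 CPM) in D21 cells and 516 UMIs (2.82 CPM) in D0 cells. Its ratio of 1.37 (1.22 to 1.54) was the highest of the mitochondrial genes, below the level filter. The remaining scarce genes were PARS2 (proline), at 3.10 CPM in D21 cells and 3.39 CPM in D0 cells (0.91, 0.81 to 1.03), and VARS2 (valine), at 3.35 CPM in D21 cells and 3.94 CPM in D0 cells (0.85, 0.76 to 0.95). VARS2 shares 5865 bases with GTF2H4 on the same strand. MTFMT, which formylates the methionine-charged tRNA that starts mitochondrial translation, was at 11.2 CPM in D21 cells and 11.99 CPM in D0 cells (0.93). Mitochondria have no glutamine enzyme of their own, and EARS2 charges that tRNA with glutamate, which the GatCAB amidotransferase then converts. The genes of its subunits had ratios of 1.17 (QRSL1), 0.99 (GATB) and 1.15 (GATC).

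**Figure D2:**
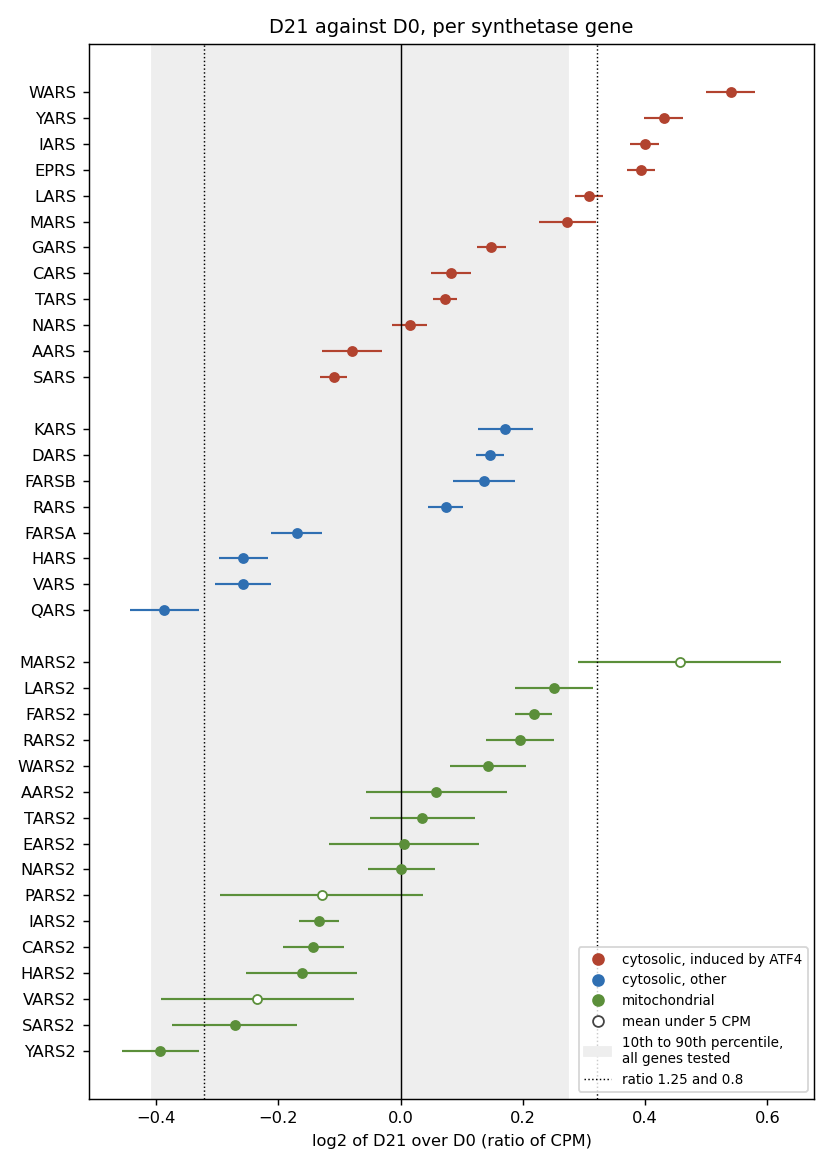
Log2 ratio of D21 over D0 CPM of each synthetase gene named in the text with its interval of counting error, grouped by compartment and by ATF4 induction. The grey band spans the 10th to 90th percentile of all genes tested (-0.41 to 0.27), the dotted lines mark a ratio of 0.8 and its inverse, and open symbols are genes under 5 CPM. WARS, YARS, IARS, EPRS and the scarce MARS2 lie to the right of the dotted line, and QARS and YARS2 to the left.

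The transcripts of the GCN2 pathway differed by less than the fold between the libraries. Uncharged tRNA, phosphorylation of eIF2 and translation of ATF4 were not measured. All 7 genes of this pathway, ATF4 included, had a ratio above 1, against 5111 of the 10771 genes tested. The interval of counting error lay above 1 for 5 of them, against 37.9% of all genes tested, and such intervals narrow with count. Of the 7 genes, 0 passed the fold. EIF2AK4, the gene of GCN2, was at 92.3 CPM in D21 cells and 84.5 CPM in D0 cells (1.09), and ATF4 itself at 104 CPM in D21 cells and 90.7 CPM in D0 cells (1.14). EIF2S1, the phosphorylated subunit of eIF2, had a ratio of 1.15 and PPP1R15A, which directs its dephosphorylation, of 1.08. Of 20 ATF4 targets that are not synthetases, 17 passed the level filter, with a median log2 ratio of 0.05. Of these 17, 4 were higher and 1 was lower, against 7.08% and 14.6% of all genes tested. PSAT1, of serine synthesis, was at 117 CPM in D21 cells and 77.4 CPM in D0 cells (1.51). SLC3A2, the heavy chain of amino acid transporters, had a ratio of 1.12, while CEBPB, a partner of ATF4, and SHMT2, of mitochondrial folate metabolism, had ratios of 0.92 and 0.91. The extremes, named after their values were seen, were NUPR1 with 2.07 and TRIB3 with 0.66. The steps on either side of charging also held no gene past the fold, with medians of -0.06 over 7 genes of tRNA maturation, export and editing and -0.05 over 8 elongation factors.

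Among the cells of 1 library, the synthetases induced by ATF4 differed widely. Cells of each library were ranked by the share of their UMIs that came from the 20 other ATF4 targets, within 10 strata of total UMIs so that the groups did not differ in depth, and divided into 4 equal groups (quartile 1 the lowest and quartile 4 the highest). The median cell had 12016 to 12026 UMIs in every quartile of the D21 cells and 18894 to 18908 UMIs in every quartile of the D0 cells. No synthetase is in the ranking list. The 12 synthetases induced by ATF4 summed to 1274, 1506, 1702 and 1910 CPM from the lowest to the highest quartile of D21 cells, and to 1043, 1233, 1444 and 1871 CPM in D0 cells. The 8 other cytosolic genes held between 490 and 550 CPM in D21 cells and between 493 and 554 CPM in D0 cells, and the mitochondrial genes between 397 and 411 CPM in D21 cells and between 378 and 410 CPM in D0 cells. The lowest quartiles of the libraries lay further apart than the highest quartiles in the group induced by ATF4. Quartiles were cut within each library, and D21 cells had fewer UMIs by which to rank them than D0 cells. The part of this depth in differences between the libraries across quartiles was not tested. The ranking list itself was at 404 CPM in the lowest and 1453 CPM in the highest quartile of D21 cells, and at 303 and 1544 CPM in D0 cells.

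The count of genes called higher, by the same fold, in the highest than in the lowest quartile was 10 of 12 in D21 cells, against 10.2% of all genes tested there, and 11 of 12 in D0 cells, against 6.93%. The median log2 difference of these 12 genes was 0.66 in D21 cells and 1.08 in D0 cells, and all 12 lay above 0 in both libraries. Among the 8 other cytosolic genes 0 passed this fold in either library, with medians of 0.17 in each, and among the 14 mitochondrial genes that passed the level filter 1 did in D21 cells (EARS2, 1.42) and 0 did in D0 cells. The scarce MARS2 had a ratio of 1.60 (1.28 to 2.001) in D21 cells and 1.12 (0.86 to 1.45) in D0 cells.

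In D0 cells the widest spread belonged to WARS, with 29.6, 37.0, 44.5 and 75.02 CPM from the lowest to the highest quartile, a ratio of 2.53 (2.38 to 2.70). In D21 cells WARS was at 54.7, 66.7, 70.9 and 78.3 CPM, a ratio of 1.43 (1.36 to 1.51). The ranking of D21 cells rests on fewer UMIs per cell (median 12022, against 18908 in D0 cells). The part of this in the smaller ratio was not tested. AARS, which did not pass the fold between the libraries, had 27.8, 33.8, 37.6 and 43.3 CPM in D21 cells (1.56) and 23.3, 30.4, 38.3 and 58.6 CPM in D0 cells (2.52). GARS had a ratio of 1.70 in D21 cells and 2.38 in D0 cells, and YARS of 1.79 in D21 cells and 2.17 in D0 cells. SARS, at 0.93 between the libraries, followed the ranking too, with 1.72 in D21 cells and 2.15 in D0 cells.

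MARS had 35.4, 42.9, 45.3 and 52.3 CPM from the lowest to the highest quartile of D21 cells (1.48) and 24.1, 30.9, 38.8 and 51.8 CPM in D0 cells (2.14). DDIT3, which overlaps MARS on the opposite strand, is one of the 20 ranking genes, and the part of this overlap in the values of MARS was not tested. IARS (1.56 in D21 cells and 2.01 in D0 cells), CARS (1.62 and 2.08), NARS (1.60 and 1.49) and TARS (1.59 in both) also passed the fold in each library. EPRS and LARS, with 2 of the 5 highest ratios between the libraries, were the least tied to the ranking, with 1.18 and 1.15 in D21 cells and 1.31 and 1.19 in D0 cells. Neither the 7 genes with an ATF4 element in their promoter window nor EPRS, SARS and WARS without one formed a separate range. Genes with the element spanned 1.48 to 1.70 in D21 cells and 1.49 to 2.52 in D0 cells, and those without it 1.18 to 1.72 in D21 cells and 1.31 to 2.53 in D0 cells.

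Other programmes also differed between the quartiles. From the lowest to the highest, 6 genes of an AGR2 state of this line summed to 1188, 764, 554 and 392 CPM in D21 cells and to 1511, 964, 731 and 1008 CPM in D0 cells. The 5 genes of an SAA state summed to 697, 882, 974 and 1029 CPM in D21 cells and to 297, 392, 417 and 309 CPM in D0 cells. Both state sums ran in 1 direction in D21 cells but turned in the highest quartile of D0 cells. The genes of a list did not move together there. From the lowest to the highest quartile of D0 cells, 1 of 6 AGR2 state genes had a ratio above 1 (2.98), and the median log2 was -0.38. Of the 5 SAA state genes 4 had a ratio above 1, with a lowest ratio of 0.59, against 4575 of the 10797 genes tested there. The 8 cell division genes summed to 1063, 1215, 1362 and 1457 CPM in D21 cells and to 1254, 1345, 1407 and 1400 CPM in D0 cells. The part of cell division in the ranking was not tested. When cells were ranked within each side of the state score described next, 10 of 12 genes in D21 cells passed the fold, against 6.59% of all genes tested, and 11 of 12 in D0 cells, against 6.65%, with median log2 differences of 0.59 in D21 cells and 1.07 in D0 cells. SLC3A2, PSAT1 and CEBPB made up 45.8 to 50.7% of the ranking list, and without them the counts were 10 in D21 cells, against 9.01% of all genes tested, and 11 in D0 cells, against 5.86%.

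Cells of this line lie along a range between an SAA state, marked by CEMIP, SAA1, SAA2, FLG and NNMT, and an AGR2 state, marked by AGR2, SPANXB1, SOX4, CST1, AFF3 and FAM155A. A score of the first list minus the second was cut at its median over both libraries, so that the sides are ranges of a score and not cell types. The SAA side held 7459 D21 cells (59.7%) and 2530 D0 cells (33.8%), and within 0.1 of the cut lay 301 D21 cells and 255 D0 cells on that side and 427 D21 cells and 269 D0 cells on the AGR2 side. The median cell had 13340 UMIs in D21 cells and 23294 UMIs in D0 cells on the SAA side, and 10350 UMIs in D21 cells and 17124 UMIs in D0 cells on the AGR2 side. The 37 synthetases summed to 2679 CPM in D21 cells and 2540 CPM in D0 cells on the SAA side, and to 2260 CPM in D21 cells and 2185 CPM in D0 cells on the AGR2 side, so that the sides of a library differed by more than the libraries on a side. NARS, TARS and the aspartate enzyme gene DARS were higher on the SAA side in both libraries. NARS was at 117 CPM on the SAA side and 76.7 CPM on the AGR2 side of D21 cells, and at 131 CPM and 82.9 CPM on these sides of D0 cells. TARS was at 278 and 200.2 CPM in D21 cells and at 291 and 204 CPM in D0 cells. The ratio of the SAA over the AGR2 side was 1.35 in D21 cells and 1.44 in D0 cells for DARS, and 1.53 in D21 cells and 1.16 in D0 cells for WARS. YARS2 and NARS2 went the other way in both libraries, with ratios of the SAA over the AGR2 side of 0.83 and 0.89 in D21 cells and 0.825 and 0.828 in D0 cells. HARS2 and FARSA also lay below 1, at 0.91 and 0.85 in D21 cells and 0.89 and 0.96 in D0 cells. The interval included 1 for HARS2 in D21 cells and for FARSA in D0 cells.

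Within a side, D21 and D0 cells lie on the same side of the cut. How their scores spread within a side was not compared. EPRS kept its ratio, with 1.30 (1.27 to 1.33) on the SAA side and 1.31 (1.28 to 1.34) on the AGR2 side, and LARS had 1.21 and 1.24. MARS was at 44.4 CPM in D21 cells and 35.8 CPM in D0 cells on the SAA side (1.24), and at 43.2 CPM in D21 cells and 36.8 CPM in D0 cells on the AGR2 side (1.18). WARS was at 77.0 CPM in D21 cells and 50.8 CPM in D0 cells on the SAA side (1.52, 1.46 to 1.57), but at 50.3 CPM in D21 cells and 43.7 CPM in D0 cells on the AGR2 side (1.15, 1.10 to 1.21). NARS, with a ratio near 1 over all cells, lay below 1 on each side, at 0.90 (0.87 to 0.92) and 0.93 (0.89 to 0.96). More D21 than D0 cells were on the SAA side, where NARS was higher, and the part of this in its ratio over all cells was not tested. TARS and RARS, both at 1.05 over all cells, had ratios of 0.96 and 0.98 and of 0.99 and 0.97 on the SAA and AGR2 sides, and only the interval of TARS on the SAA side (0.94 to 0.97) excluded 1. QARS was lower on both sides (0.75 and 0.70), and VARS, at 0.84 over all cells, was called lower on both (0.77 and 0.80), against 15.6% of all genes tested on the SAA side and 14.4% on the AGR2 side. Over the group induced by ATF4 the median log2 ratio was 0.21 on the SAA side, where 4 of 12 genes were higher against 6.53% of all genes tested, and 0.12 on the AGR2 side, where 1 of 12 was higher against 6%, a share near that of all genes. For the other cytosolic genes the medians were -0.11 and -0.04, and for the mitochondrial genes -0.01 and -0.05.

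The libraries differed in depth per cell, and the ratios were also taken over cells in the same range of UMIs. Among cells of 10000 to 20000 UMIs in both libraries, an alternative chosen after seeing the data, 15.4% of all genes tested were higher and 16.9% lower. There, 7 of 12 genes of the group induced by ATF4 were higher, the ratio of WARS was 1.68, that of YARS 1.60 and that of MARS 1.31, so that MARS was called higher there, QARS was at 0.81 and no longer called, and the median of the other cytosolic genes turned to 0.11. AARS, SARS and VARS were at 1.05, 1.02 and 1.03 in those cells, on the other side of 1, and YARS2 was at 0.73. At a stricter fold of 1.5, 0 of the 34 genes were called in either direction, against 1.56% higher and 3.99% lower of all genes tested.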

How the data were processed

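D21 revertant and D0 parental cells of MDA-MB-231 gave 1 library each with the 10x Genomics 3' kit. The deposited values are raw UMI counts per gene and barcode, which the authors obtained from Cell Ranger 4, with GRCh38 as the genome, and which include empty droplets. Gene annotation, alignment settings and use of strand: not given in the sources used here. Barcodes with at least 5422 (D21) or 9009 (D0) UMIs, 500 genes and at most 20% mitochondrial UMIs were kept as cells, 38 and 11 of those over the UMI minimum being removed. The sources name no cell filter, and doublets were kept. Cells held 91.5% and 91.6% of the 199817213 and 199799447 UMIs.

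Counts were summed over cells and scaled to CPM with exact Poisson intervals. Ratios have exact conditional (Clopper-Pearson) intervals at 95%, which cover counting error only. With 1 library per group no p-value was computed, and cells were not used as replicates. Python 3.11.15, numpy 2.4.6, scipy 1.17.1 and pandas 2.3.3 were used. The state score is the mean of log1p counts per 10000 over the SAA list minus that over the AGR2 list.

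The members and lists were chosen with earlier results of these data known, from general knowledge and, for the state lists, from those results. Every member is named except 1, which is not reported here and is left out of the figures but not of the sums, counts and medians. Of other lists the 4 genes of highest mean CPM may be named, with exceptions stated. MARS and MARS2 are described in full because of the medium. Annotated pseudogenes (GENCODE v29) carry the names of AARS, CARS, GARS, NARS, WARS, FARSB, KARS, RARS, IARS2, TARS2 and WARS2, so that some of their reads may be split. Overlaps are those of the same annotation. Promoter windows are from RefSeq (GRCh38.p14). For CARS, GARS and TARS the match lies at 1 of several annotated starts, and for MARS it lies inside the longer span that GENCODE v29 gives the gene.

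On Poisson counts simulated at the mean levels and depths of these libraries (10771 genes, 200 changed), the D21 over D0 intervals held the true ratio of 95% of the changed genes. These counts had no variation between cells or cultures, so they check the calculation of the intervals only. Alternatives changed the cell calling, the mitochondrial limit, the cells of most UMIs, the weighting of cells, the scaling, the level filter, the fold and the ranking. Those on cells of 10000 to 20000 UMIs, on leaving out cells with at least 5 UMIs of IFIT1, IFIT2, IFIT3 and OASL, on the ranking list without 3 genes and on ranking within state sides were added after seeing the data.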

Additional observations from a re-analysis of the deposited data

Results flagged for a closer look

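Synthetase transcripts were also present outside the cells, in barcodes of at most 100 UMIs, which the comparisons did not use. They made up 2195 CPM (2157 to 2234) of the UMIs in such barcodes of the D21 library and 2007 CPM (1974 to 2040) in those of the D0 library, set against 2533 CPM (D21) and 2327 CPM (D0) in the cells of the same libraries. These barcodes held 12710 synthetase UMIs in the D21 library and 14485 in the D0 library. WARS was at 58.7 CPM in those of the D21 library and 56.3 CPM in those of the D0 library, MARS at 43.2 CPM (D21) and 33.3 CPM (D0), and YARS2 at 17.6 CPM (D21) and 22.9 CPM (D0). There are no control libraries without cells, and the part of this RNA in the values of the cells was not tested.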

How the results depend on the processing

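No paired analysis was possible because each group is 1 library. Ratios of D21 over D0 cells were recomputed under 13 alternatives. Of the 37 genes, 25 stayed on the same side of 1 in all of them, and none that was called changed its direction. The median log2 ratio of the group induced by ATF4 was 0.18 with the UMI minimum doubled, 0.24 with the D0 minimum in both libraries, 0.25 with each cell weighing the same, 0.24 with a total without mitochondrial and ribosomal protein genes, and 0.18 with the state sides weighing the same, against 0.21. With the sides weighing the same, 2 other cytosolic and 2 mitochondrial genes were lower, against 14.4% of all genes tested. The mitochondrial median was then -0.02 against 0.02. With a filter of 1 CPM, 1 mitochondrial gene was higher, MARS2, against 10.4% of all genes tested. At a fold of 1.5 the counts of higher genes induced by ATF4, lower other cytosolic and lower mitochondrial genes were 0, 0 and 0. In cells of 10000 to 20000 UMIs, 7 genes of the group induced by ATF4, 1 other cytosolic and 3 mitochondrial genes were higher. There, 0 other cytosolic genes were lower. Of all genes tested, 15.4% were higher and 16.9% lower. The medians of the 3 groups were 0.35, 0.11 (against -0.05) and 0.14. The cause of these shifts was not tested. Leaving out cells with interferon genes changed no call, and WARS ranged from 1.35 to 1.68 over all alternatives. Ranking cells with no strata of total UMIs gave 1 other cytosolic and 3 mitochondrial genes past the fold in D21 cells and 3 and 1 in D0 cells, beside 15.2% and 13.2% of all genes tested, with medians of 0.76 and 1.195 for the group induced by ATF4. Ranking within state sides gave 0.59 in D21 cells. Counts behind a D21 over D0 ratio over all cells ran from 516 UMIs upward, and the variation between cultures was not measured.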
